A study of Homo sapiens with 48 samples.

Results

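The 10 lipid-sensing genes described here, 7 of fatty acid use and 3 of cholesterol handling, were measured by RNA sequencing in the human monocytic leukemia line THP-1. The 10 genes are listed by symbol among the 24462 symbols of the count tables. PDK4, PLIN2, ANGPTL4, CPT1A, ACADVL, SLC25A20 and HADHA are fatty acid sensing genes, and ABCA1, ABCG1 and MYLIP are targets of the liver X receptors (LXRs). All 10 were found in all 48 libraries' tables, each on 1 row, and all 10 passed the filter on low counts, with 15642 genes tested. Cells were exposed for 12 h, and there were 3 libraries in each of 16 groups. The treated groups received sodium lauryl sulfate (a detergent), mercuric chloride, the glucocorticoids dexamethasone and prednisolone, lipopolysaccharide (LPS, a bacterial cell wall component), the calcineurin inhibitors cyclosporine and tacrolimus, the JAK kinase inhibitor tofacitinib, the isoflavone genistein, the nucleoside analogues ribavirin and aciclovir, or benzoic acid. The remaining groups were vehicle (dimethyl sulfoxide, DMSO) and untreated cells, each in a control series 2 and a control series 1. The treatment protocol gives 0.1% DMSO, whereas the titles give 0.4, 0.5 and 0.6% for the vehicle libraries of series 2 and 0.1, 0.2 and 0.3% for those of series 1. Each chemical was given at a concentration called CV90, whose value is not given in the sources used here.

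Peroxisome proliferator-activated receptors (PPARs) are nuclear receptors that bind fatty acids and switch on genes for their transport, storage and oxidation. LXRs bind oxysterols and switch on genes that move cholesterol out of the cell or limit its uptake. Both kinds of receptor bind DNA together with a retinoid X receptor, and in monocytes and macrophages both are known for handling lipid taken up from the surroundings. Among the fatty acid genes, PLIN2 coats lipid droplets and ANGPTL4 is a secreted inhibitor of lipoprotein lipase. PDK4 is a kinase that holds back glucose-derived pyruvate from oxidation. CPT1A and SLC25A20 carry long-chain fatty acids into mitochondria, where ACADVL and HADHA catalyse steps of their oxidation. Among the LXR genes, ABCA1 and ABCG1 are cholesterol exporters and MYLIP (also called IDOL) is a ubiquitin ligase that limits cholesterol uptake.

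The upstream regions of ABCA1, PDK4, PLIN2 and CPT1A are shown because these 4 members changed with sodium lauryl sulfate, described next. Each is the 250 bases before the annotated start on the minus strand of GRCh38.p14, from RefSeq. The regions are chr9:104928156-104928405 for ABCA1, chr7:95596517-95596766 for PDK4, chr9:19127493-19127742 for PLIN2 and chr11:68844278-68844527 for CPT1A. Capitals mark a best match, on either strand, to an idealized repeat, the first found where several were equally good. The repeat was the LXR-type DR4 (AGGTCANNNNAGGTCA) in ABCA1 and the PPAR-type DR1 (AGGTCANAGGTCA) in the others.
ABCA1: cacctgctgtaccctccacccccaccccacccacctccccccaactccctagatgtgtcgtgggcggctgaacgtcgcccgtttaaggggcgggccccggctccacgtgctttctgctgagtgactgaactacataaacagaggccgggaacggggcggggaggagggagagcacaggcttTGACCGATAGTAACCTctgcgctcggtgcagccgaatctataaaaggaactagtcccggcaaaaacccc
PDK4: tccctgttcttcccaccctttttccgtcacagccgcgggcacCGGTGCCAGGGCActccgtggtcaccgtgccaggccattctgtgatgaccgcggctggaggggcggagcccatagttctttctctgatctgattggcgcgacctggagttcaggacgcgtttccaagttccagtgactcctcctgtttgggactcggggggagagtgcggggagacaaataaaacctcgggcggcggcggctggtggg
PLIN2: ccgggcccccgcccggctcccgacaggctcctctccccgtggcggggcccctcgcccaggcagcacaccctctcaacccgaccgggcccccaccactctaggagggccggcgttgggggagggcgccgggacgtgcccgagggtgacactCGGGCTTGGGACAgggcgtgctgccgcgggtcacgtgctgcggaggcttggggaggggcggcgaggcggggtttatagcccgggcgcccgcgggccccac
CPT1A: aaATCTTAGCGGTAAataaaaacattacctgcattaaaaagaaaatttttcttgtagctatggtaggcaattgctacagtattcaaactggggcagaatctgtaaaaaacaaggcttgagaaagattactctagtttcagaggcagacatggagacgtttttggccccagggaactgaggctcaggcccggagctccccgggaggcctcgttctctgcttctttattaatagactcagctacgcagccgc
The ABCA1 stretch matched 10 of the 12 fixed letters of DR4, between 69 and 54 bases before the start, and 2.03% of 35116 promoter windows of the same length held a match at least as good. The DR1 matches covered 8 letters in PDK4, which 68.7% of windows reached, and 7 letters in PLIN2 and in CPT1A, which 99.4% reached. In ABCA1 the best DR1 match of 9 letters, reached by 18% of windows, overlapped the capitals. A match describes the letters and is no evidence of binding. Of the 10 members, 9 had an entry in this table, all but ABCG1. The other members lie on GRCh38.p14 at chr2:26190635-26244632 (HADHA), chr3:48856926-48898882 (SLC25A20), chr6:16129086-16163887 (MYLIP), chr17:7217125-7225266 (ACADVL), chr19:8364155-8374370 (ANGPTL4) and chr21:42199689-42297244 (ABCG1).

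Total counts were between 5952817 and 11496950 per library. Levels are counts per 1000000 (CPM) of the TMM-scaled library from 3' end sequencing, and a level is compared here only with the same gene in other groups. A gene is said to be called, to have risen or to have fallen at an adjusted p under 0.05, by edgeR's quasi-likelihood test against both vehicle series with Benjamini-Hochberg adjustment over all genes tested. All 12 treatments share the same 6 vehicle libraries. The labels do not say whether libraries of 1 group were separate cultures, so the p-values measure a spread between libraries that may be technical. In bulk RNA, a change in the number of cells that express a gene cannot be told apart from a change in RNA per cell. Marker sums are instead CPM of the total counts, without TMM scaling. For 8 monocyte markers they were 442 to 465 CPM with mercuric chloride and 785 to 1340 CPM over the other groups. TMM scaling would narrow this gap, because the mercuric chloride libraries have the lowest TMM factors.

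With sodium lauryl sulfate the fatty acid genes PDK4, PLIN2 and CPT1A rose and the cholesterol exporter ABCA1 fell. These were 4 of 10 members, whereas 0.307% of all genes tested were called (48 genes, 44 higher and 4 lower). The members were chosen with earlier results of these data known, so this share is a description and no independent support. The same holds for the shares of members in the other treatments. PDK4 had the largest rise of the 44 genes and ABCA1 the largest fall of the 4. PDK4 stood at 36.3, 36.7 and 24.1 CPM with sodium lauryl sulfate, against 2.59, 2.37 and 2.11 CPM in vehicle series 2 and 3.16, 3.02 and 4.15 CPM in vehicle series 1. The lowest treated library was far above the highest vehicle library. The rise was 11.3-fold, a log2 fold change of 3.50 (SE 0.25, edgeR adjusted p = 4.55e-10).

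PLIN2, the droplet coat gene, was also well separated. Its treated libraries held 317, 329 and 303 CPM, against 99.8, 102 and 108 CPM in vehicle series 2 and 76.6, 81.4 and 69.8 CPM in vehicle series 1. The log2 fold change was 1.84 (SE 0.08, edgeR adjusted p = 1.63e-15). CPT1A, the entry step of mitochondrial fatty acid oxidation, had 360, 351 and 334 CPM with sodium lauryl sulfate, against 209, 205 and 216 CPM in vehicle series 2 and 206, 186 and 187 CPM in vehicle series 1. Here too no treated library overlapped a vehicle library. The CPT1A change was 0.79 on the log2 scale (SE 0.08, edgeR adjusted p = 1.76e-06).

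ABCA1 moved the other way and its 3 treated libraries lay close together. They held 9.71, 9.22 and 9.92 CPM, against 27.7, 30.9 and 26.1 CPM in vehicle series 2 and 21.9, 24.2 and 26.6 CPM in vehicle series 1. Every treated library was below every vehicle and untreated library, and the log2 fold change was -1.44 (SE 0.15, edgeR adjusted p = 5.39e-07). The other 3 genes that fell were RNF145, SESN3 and ADI1, named here after their values were seen. RNF145, a ubiquitin ligase of the endoplasmic reticulum reported in mouse liver as LXR-responsive, held 28.6, 26.3 and 26.8 CPM with sodium lauryl sulfate. The vehicle libraries held 40.9, 35.9 and 49.0 CPM of RNF145 in series 2 and 44.6, 42.1 and 44.1 CPM in series 1 (log2 fold change -0.65, SE 0.09, edgeR adjusted p = 0.000348).

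**Figure D1:**
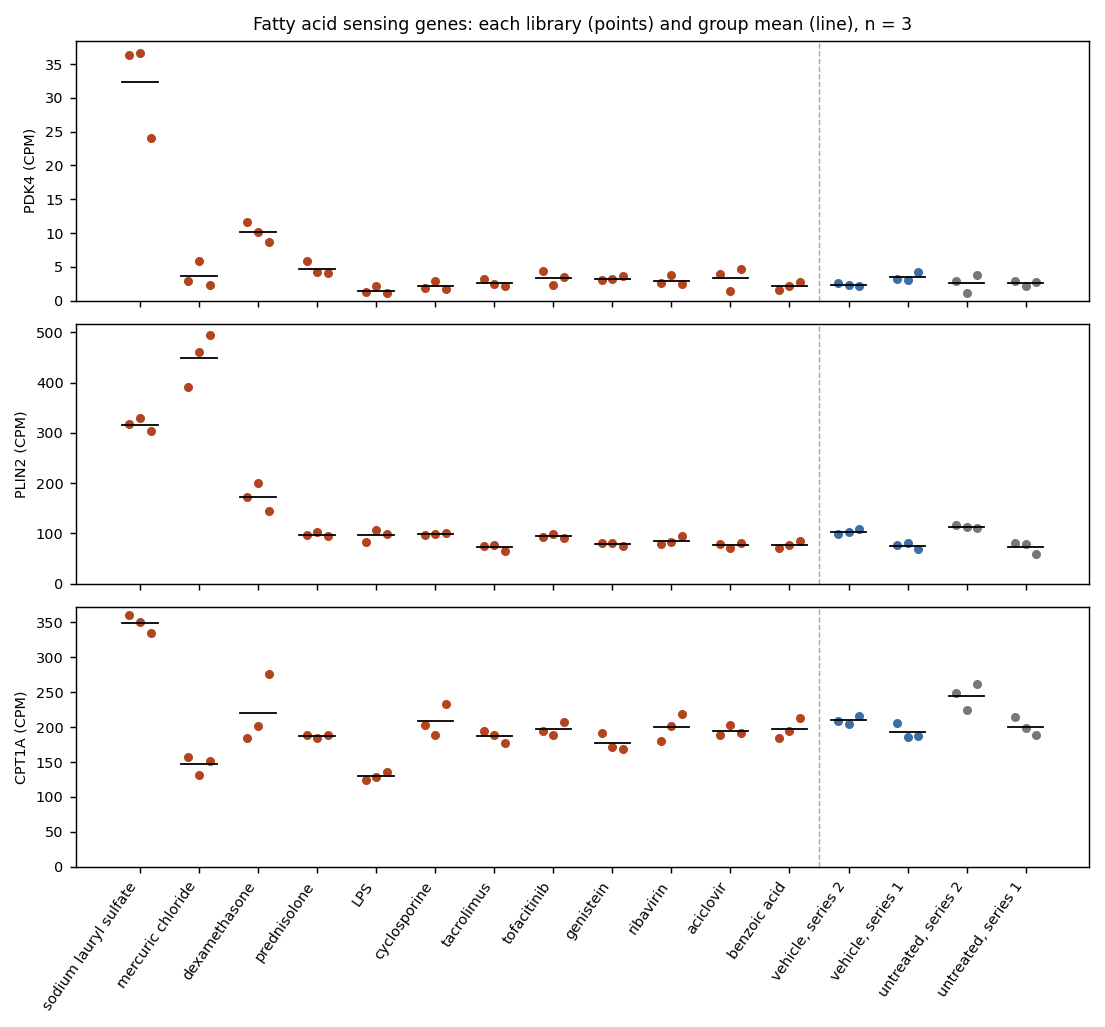
Levels of PDK4, PLIN2 and CPT1A (y axes, CPM of the TMM-scaled library, from 0) in each of 3 libraries per group (points) with the group mean (line). Treatments are left of the dashed line, vehicle and untreated groups right of it. PDK4 was highest with sodium lauryl sulfate (mean 32.3 CPM) and next with dexamethasone (10.1 CPM). PLIN2 was highest with mercuric chloride (449 CPM), then with sodium lauryl sulfate (317 CPM).

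The remaining members did not pass the test with sodium lauryl sulfate. The carnitine carrier SLC25A20 was at 23.2, 26.8 and 21.3 CPM, against 16.8, 14.9 and 10.6 CPM in vehicle series 2 and 15.4, 13.9 and 13.3 CPM in vehicle series 1 (log2 fold change 0.75, SE 0.17, edgeR adjusted p = 0.145). ACADVL, the first enzyme of very-long-chain fatty acid oxidation, was at 114, 152 and 136 CPM, against 83.0, 88.0 and 84.6 CPM in vehicle series 2 and 102, 103 and 112 CPM in vehicle series 1 (0.50, SE 0.08, edgeR adjusted p = 0.154). MYLIP was at 15.8, 9.95 and 13.3 CPM, against 17.0, 22.9 and 19.0 CPM in vehicle series 2 and 18.7, 21.3 and 20 CPM in vehicle series 1 (-0.60, SE 0.15, edgeR adjusted p = 0.218). In all 3 genes the treated libraries lay beyond the 6 vehicle libraries, SLC25A20 and ACADVL above and MYLIP below. That made 7 of 10 members beyond all vehicle libraries, 5 above and 2 below, beside 7.21% of all genes tested. Against the 6 untreated libraries, MYLIP overlapped (12.5 to 18.6 CPM) and the lowest ACADVL library met their highest at 114 CPM. SLC25A20 was above them (11.1 to 18.1 CPM). ANGPTL4 was split among its libraries, with 8, 0 and 21 counts and 3 counts in the 6 vehicle libraries together (ratio of rates 18.8, 95% counting interval 5.84 to 96.6, edgeR adjusted p = 0.998). ABCG1 had 7 counts with sodium lauryl sulfate and 36 in the vehicle libraries, a ratio of 0.379 (0.142 to 0.863, edgeR adjusted p = 1). HADHA had a log2 fold change of 0.04 (95% interval -0.10 to 0.18).

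The 7 fatty acid genes had a median log2 fold change of 0.79 and the 3 LXR genes one of -1.33, while the median over all genes tested was 0.006. The LXR median is the value of ABCG1 (SE 0.84), which was not called and rests on 7 counts, against 36 with vehicle. It is therefore no measure of the LXR genes as a group. ABCA1, which was called, had -1.44, and MYLIP, which was not, had -0.6. Wider lists of the same pathways held no called gene with sodium lauryl sulfate. None was called among 29 tested genes of other PPAR targets and fatty acid oxidation (median 0.056) or 13 other LXR targets (median 0.158). None was called either among 12 receptors and coregulators, 13 sterol synthesis genes or 15 lipid droplet and cholesterol storage genes.

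**Figure D2:**
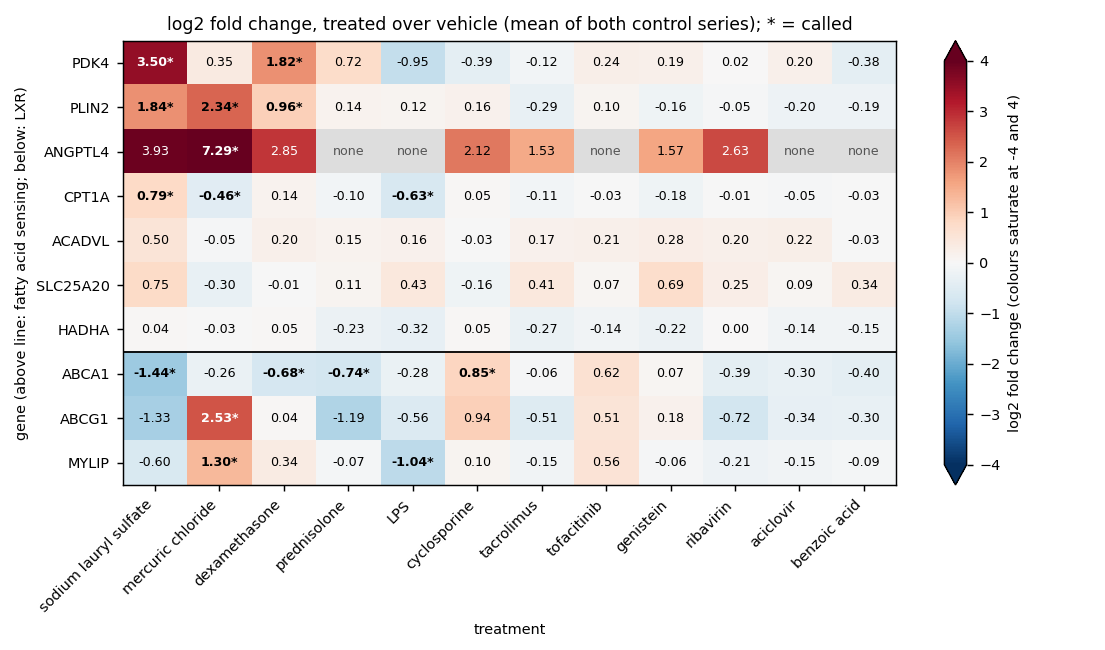
log2 fold change of each member (rows) in each of 12 treatments (columns), treated over vehicle, as the mean over both vehicle series. Asterisks and bold mark called changes, the black line parts the 7 fatty acid genes from the 3 LXR genes, and grey cells marked "none" are ANGPTL4 at 3 counts or fewer in the treated and in the vehicle libraries, where no fold is given. Sodium lauryl sulfate is the column with 3 called rises above the line and a called fall below it.

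Mercuric chloride changed 5 of the 10 members, beside 41.9% of all genes tested. PLIN2 reached its highest level of the study, with 391, 460 and 495 CPM, against 99.8, 102 and 108 CPM in vehicle series 2 and 76.6, 81.4 and 69.8 CPM in vehicle series 1 (log2 fold change 2.34, SE 0.09, edgeR adjusted p = 8.26e-22). ANGPTL4, barely counted elsewhere, had 51, 30 and 64 counts. With 3 counts in the 6 vehicle libraries, the ratio of rates was 191 (95% counting interval 64.2 to 939, edgeR adjusted p = 1.05e-05). ANGPTL4 passed the filter on low counts through these same mercuric chloride libraries, so its place among the members called is not independent of their level. CPT1A fell, with 157, 132 and 151 CPM, against 209, 205 and 216 CPM in vehicle series 2 and 206, 186 and 187 CPM in vehicle series 1 (-0.46, SE 0.09, edgeR adjusted p = 0.000925). PLIN2, ANGPTL4 and CPT1A were each clear of all 6 vehicle libraries, and 5 of 10 members were, beside 50.6% of all genes tested, so the members' shares here were near those of all genes. The 3' end of ANGPTL4 is covered on the opposite strand by RAB11B-AS1 in GENCODE v29, and whether counting used strand is not given in the sources used here. RAB11B-AS1 itself had 53 to 86 counts per mercuric chloride library, against 75 to 92 in vehicle series 2 and 48 to 52 in vehicle series 1.

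Of the LXR genes, MYLIP and ABCG1 rose with mercuric chloride and ABCA1 did not pass the test. MYLIP held 58.0, 44.9 and 43.3 CPM with mercuric chloride, against 17.0, 22.9 and 19.0 CPM in vehicle series 2 and 18.7, 21.3 and 20 CPM in vehicle series 1 (log2 fold change 1.30, SE 0.14, edgeR adjusted p = 6.85e-09). ABCG1 had 22, 18 and 13 counts, against 36 in all 6 vehicle libraries (ratio of rates 5.83, 95% counting interval 3.75 to 9.17, edgeR adjusted p = 0.0177). The ABCG1 call was lost without mercuric chloride replicate 1 or without vehicle series 2 replicate 2 or 3, with an adjusted p of up to 0.0753 over the 9 libraries left out in turn. ABCA1 was at 17.6, 26.6 and 21.5 CPM, with 1 library inside and the others below the vehicle range of 21.9 to 30.9 CPM (-0.26, SE 0.15, edgeR adjusted p = 0.55). PDK4 was at 2.87, 5.88 and 2.27 CPM (0.35, SE 0.34, edgeR adjusted p = 1), so the libraries with the most PLIN2 did not share the PDK4 level seen with sodium lauryl sulfate. Against cyclosporine in place of vehicle, mercuric chloride changed 5 members, beside 50.7% of all genes tested, with log2 fold changes of 2.18 for PLIN2, 5.17 for ANGPTL4, 1.20 for MYLIP, -0.50 for CPT1A and -1.11 for ABCA1.

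The mercuric chloride libraries stood apart from all others, and the part of this in the changes was not tested. Counts were found for a mean of 18748 symbols (SD 211, n = 3), whereas the means of the other 15 groups were 16310 to 16945. Their TMM factors were 0.752 to 0.772, against 0.959 to 1.06 elsewhere. Scaling by total counts, chosen after seeing the data, shifted the median of all genes by -0.399 and called 9 members, adding falls of ACADVL, SLC25A20, HADHA and ABCA1. Of all 15642 genes tested, 8196 were then called. On that scale 26.9% of called genes were higher, against 52.0% with TMM. Summed fibroblast markers, without TMM scaling, were higher (29.6 to 32.2 CPM with mercuric chloride, 0 to 6.20 CPM in the other groups). Over all libraries COL1A1 of that list reached 31.6 CPM, DCN 4.98 CPM and COL1A2 0.336 CPM. Epithelial sums overlapped (1.85 to 14.8 CPM, against 0.0976 to 2.41 CPM). Summed adipocyte markers were at 0.948 to 2.16 CPM, against 0 to 0.63 CPM. The sums of T cell, B cell, erythroid and hepatocyte markers overlapped those of the other groups.

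Dexamethasone raised PDK4 and PLIN2 and lowered ABCA1. These were 3 of 10 members, beside 8.57% of all genes tested (1340 genes, 832 without dexamethasone replicate 3 and 511 in a fit of only the groups compared). PDK4 had 11.7, 10.1 and 8.65 CPM with dexamethasone, against 2.59, 2.37 and 2.11 CPM in vehicle series 2 and 3.16, 3.02 and 4.15 CPM in vehicle series 1 (log2 fold change 1.82, SE 0.26, edgeR adjusted p = 0.000479). PLIN2 had 173, 200 and 145 CPM, against 69.8 to 108 CPM in the 6 vehicle libraries (0.96, SE 0.09, edgeR adjusted p = 6.47e-07). Both genes were above every vehicle library, as was MYLIP (23.3 to 28.3 CPM, not called), beside 15.8% of all genes beyond them. ABCA1 had 15.0, 22.7 and 11.3 CPM and its highest library overlapped the lowest vehicle library at 21.9 CPM (-0.68, SE 0.14, edgeR adjusted p = 0.0156). The ABCA1 call was lost without dexamethasone replicate 1 or 3 or vehicle series 1 replicate 3, with untreated cells in place of vehicle, and in a fit of only the groups compared (adjusted p of up to 0.28). Replicate 3 also differed from the others in CPT1A (276 CPM, against 185 and 201 CPM) and HADHA (335 CPM, against 266 and 271 CPM). Without it the log2 fold changes were 1.92 for PDK4, 1.07 for PLIN2 and -0.46 for ABCA1. CPT1A, with a log2 fold change of 0.14 (95% interval -0.03 to 0.30), did not pass the test with dexamethasone.

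Prednisolone, the other glucocorticoid, changed 1 of 10 members, beside 1.96% of all genes tested. ABCA1 had 14.8, 17.7 and 14.6 CPM, against 27.7, 30.9 and 26.1 CPM in vehicle series 2 and 21.9, 24.2 and 26.6 CPM in vehicle series 1 (log2 fold change -0.74, SE 0.14, edgeR adjusted p = 0.0172). All 3 were below every vehicle library, beside 12.8% of all genes beyond them, yet the call was lost with untreated cells in place of vehicle (adjusted p = 0.182) and without prednisolone replicate 1 or 3 or vehicle series 1 replicate 2 or 3 (up to 0.138). PDK4 was at 5.78, 4.26 and 4.09 CPM (0.72, SE 0.28, edgeR adjusted p = 1), its lowest library just under the highest vehicle library. PLIN2, at 96.0, 102 and 94.8 CPM, lay within the range of the vehicle libraries.

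Dexamethasone was set directly against prednisolone at the same time of exposure, with concentrations not given. In all, 3 members were higher with dexamethasone, beside 9.23% of all genes called (1444 genes, 638 without dexamethasone replicate 3, 2346 without its replicate 2 and 6 in a fit of only these 6 libraries). PDK4 was 2.15-fold higher (log2 difference 1.10, 95% interval 0.49 to 1.71, edgeR adjusted p = 0.0166) and PLIN2 1.77-fold (0.82, 0.61 to 1.03, edgeR adjusted p = 6.07e-07). HADHA differed by 0.28 (0.12 to 0.45, edgeR adjusted p = 0.0229). ABCA1 showed no detectable difference between the steroids (0.06, -0.27 to 0.39, edgeR adjusted p = 0.847). No member was called in that smallest fit, where the adjusted p was 0.221 for PDK4 and 0.0915 for PLIN2. The PDK4 difference also lost its call without prednisolone replicate 2 or 3 (adjusted p of up to 0.0844), and that of HADHA without dexamethasone replicate 3 or prednisolone replicate 1 or 3 (up to 0.274).

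LPS lowered CPT1A and MYLIP, beside 7.2% of all genes called. CPT1A had 124, 129 and 136 CPM, the lowest mean of the 16 groups, against 209, 205 and 216 CPM in vehicle series 2 and 206, 186 and 187 CPM in vehicle series 1 (log2 fold change -0.63, SE 0.09, edgeR adjusted p = 2.08e-05). MYLIP had 10.3, 9.96 and 8.65 CPM, against 17.0, 22.9 and 19.0 CPM in vehicle series 2 and 18.7, 21.3 and 20 CPM in vehicle series 1 (-1.04, SE 0.15, edgeR adjusted p = 2.08e-05). Neither gene overlapped the vehicle libraries. PDK4 was also below all of them, at 1.19, 2.08 and 1.09 CPM on 47 counts, without passing the test (-0.95, SE 0.34, edgeR adjusted p = 0.541). These 3 of 10 members stand beside 17.5% of all genes beyond the vehicle libraries. ABCA1 was at 23.8, 22.2 and 18.7 CPM (-0.28, SE 0.14, edgeR adjusted p = 0.995), so MYLIP was the LXR gene with a call.

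**Figure D3:**
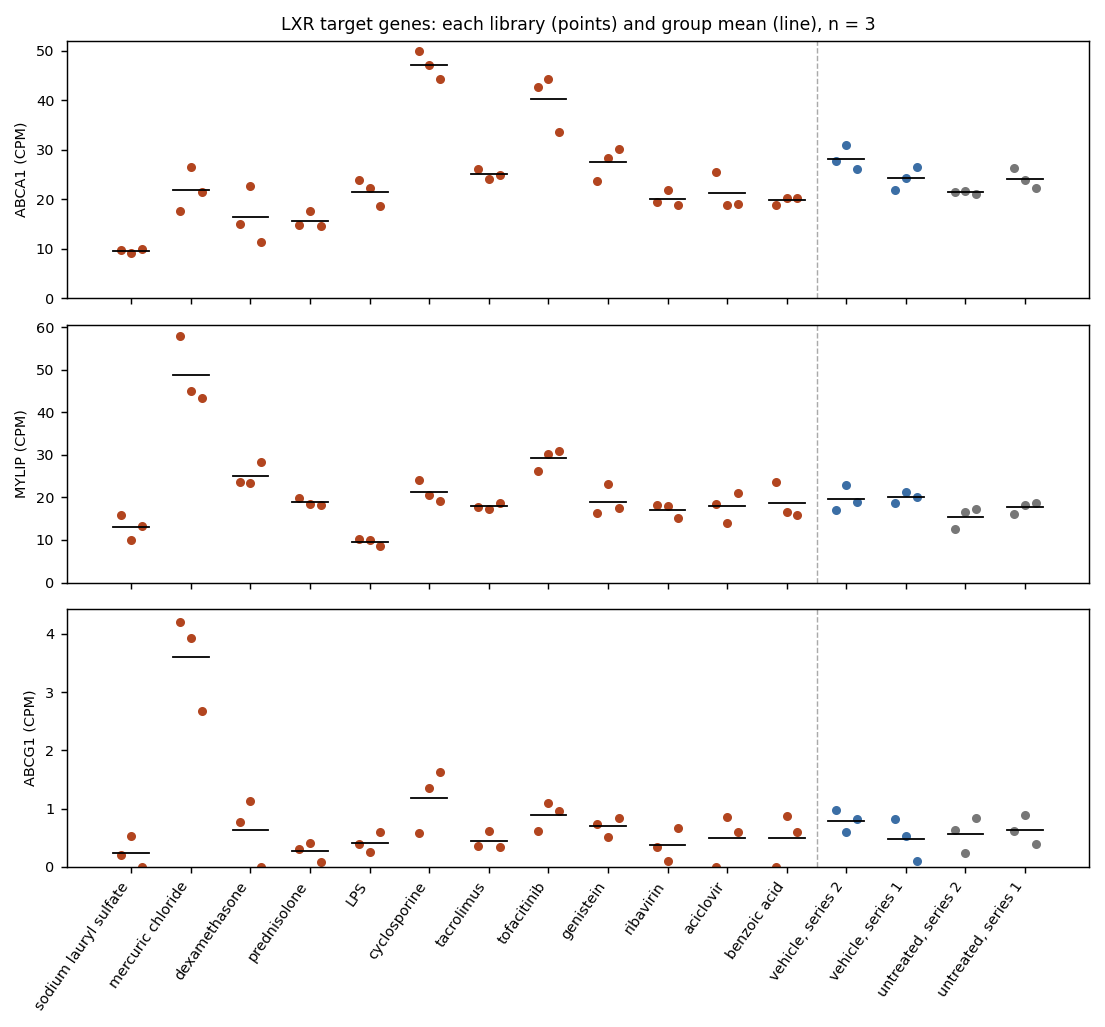
Levels of ABCA1, MYLIP and ABCG1 (y axes, CPM of the TMM-scaled library, from 0) in each of 3 libraries per group (points) with the group mean (line), treatments left of the dashed line. ABCA1 was highest with cyclosporine (mean 47.2 CPM) and tofacitinib (40.2 CPM) and lowest with sodium lauryl sulfate (9.61 CPM), while MYLIP and ABCG1 were highest with mercuric chloride (48.8 and 3.61 CPM).

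Cyclosporine raised ABCA1, the single member called, beside 0.831% of all genes tested. ABCA1 had 50.0, 47.1 and 44.4 CPM, against 27.7, 30.9 and 26.1 CPM in vehicle series 2 and 21.9, 24.2 and 26.6 CPM in vehicle series 1 (log2 fold change 0.85, SE 0.13, edgeR adjusted p = 0.00339). The 3 libraries were above every vehicle library, as 11.4% of all genes were above or below, and above every other group's, though tofacitinib's highest, at 44.3 CPM, nearly reached the lowest. ABCG1 had 28 counts with cyclosporine, against 36 in the 6 vehicle libraries (ratio of rates 1.95, 95% counting interval 1.15 to 3.28, edgeR adjusted p = 1). MYLIP, at 24.1, 20.6 and 19.1 CPM, overlapped the vehicle libraries (0.10, SE 0.14, edgeR adjusted p = 1).

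Tacrolimus, which acts on the same phosphatase, changed no member, beside 0.0575% of all genes tested, and ABCA1 stood at 26.1, 24.1 and 25.0 CPM. SLC25A20, not called, lay just above all 6 vehicle libraries (16.9 to 22.5 CPM, against 10.6 to 16.8 CPM). That was 1 of 10 members, near the 6.8% of all genes beyond them. The direct difference of cyclosporine from tacrolimus was called for 4 members, beside 20.2% of all genes. ABCA1 was 1.88-fold higher with cyclosporine (log2 difference 0.91, 95% interval 0.60 to 1.22, edgeR adjusted p = 1.67e-05). PLIN2 was higher by 0.46 (0.24 to 0.67, edgeR adjusted p = 0.00136) and HADHA by 0.32 (0.15 to 0.48, edgeR adjusted p = 0.00365). SLC25A20 was lower, with a difference of -0.57 (-0.99 to -0.14, edgeR adjusted p = 0.0492), a call lost when any 1 of the 6 libraries was left out (adjusted p of 0.0528 to 0.231). PLIN2 and HADHA are also higher in control series 2 than in series 1, and the labels do not say with which series either drug was run, so for these genes drug and series cannot be told apart.

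**Figure D4:**
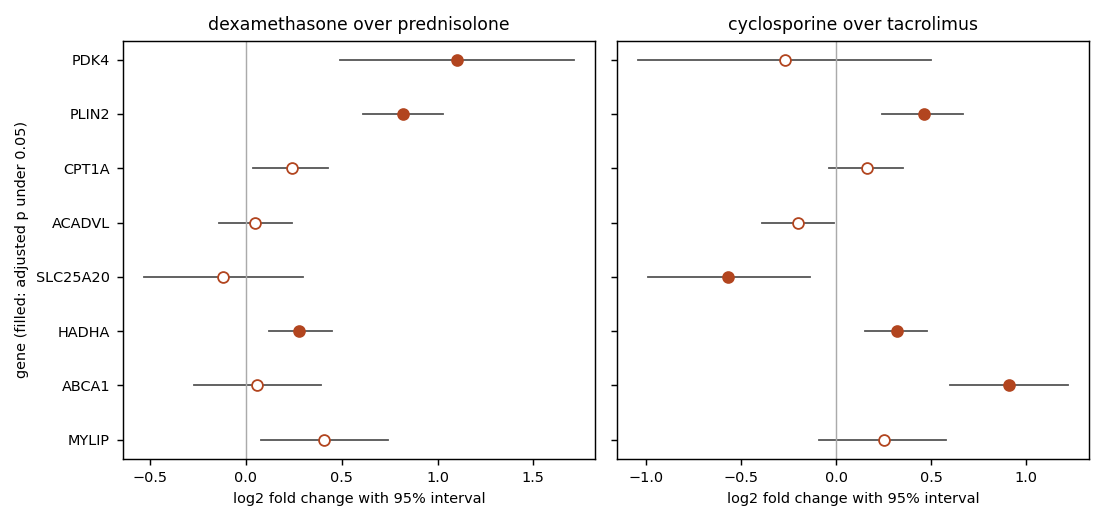
Direct differences between drugs for 8 members (ANGPTL4 and ABCG1, with few counts, are left out), as log2 fold change (x axis) with its 95% interval, n = 3 libraries per drug. Filled points were called. PDK4 and PLIN2 were higher with dexamethasone than with prednisolone (1.10 and 0.82), where ABCA1 lay at 0.06. ABCA1 was higher with cyclosporine than with tacrolimus (0.91).

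Tofacitinib left both ABCA1 and MYLIP above all 6 vehicle libraries, but neither passed the test, with 2.32% of all genes called. ABCA1 had 42.6, 44.3 and 33.6 CPM, against 27.7, 30.9 and 26.1 CPM in vehicle series 2 and 21.9, 24.2 and 26.6 CPM in vehicle series 1 (log2 fold change 0.62, SE 0.13, edgeR adjusted p = 0.0624). MYLIP had 26.2, 30.3 and 31.0 CPM, against 17.0, 22.9 and 19.0 CPM in vehicle series 2 and 18.7, 21.3 and 20 CPM in vehicle series 1 (0.56, SE 0.14, edgeR adjusted p = 0.0616). These 2 members were beyond all vehicle libraries beside 13.6% of all genes tested. Both were called by DESeq2 (adjusted p = 0.0426 and 0.0377) and by limma-voom (0.031 and 0.038). Neither was called by edgeR with DESeq2 size factors (adjusted p = 0.0669 and 0.0582), with no filter on low counts (0.0792 and 0.0825) or with a replicate block (0.0521 and 0.069). With each of 9 libraries left out in turn, ABCA1 was called 1 time (edgeR adjusted p of up to 0.278) and MYLIP 0 times (up to 0.285). ABCG1 had 23 counts, against 36 in the vehicle libraries (ratio of rates 1.41, 95% counting interval 0.796 to 2.44).

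Genistein, ribavirin, aciclovir and benzoic acid called none of the 10 members, beside 0.237%, 0.147%, 0.237% and 0.032% of all genes tested. Genistein came nearest with the carnitine carrier SLC25A20, at 21.6, 24.4 and 22.7 CPM, against 16.8, 14.9 and 10.6 CPM in vehicle series 2 and 15.4, 13.9 and 13.3 CPM in vehicle series 1. Its 3 libraries were above all 6 of vehicle, with a log2 fold change of 0.69 (SE 0.17, edgeR adjusted p = 0.192). ACADVL was also just above them, at 113 to 117 CPM against 83.0 to 112 CPM (0.28, SE 0.08, not called). These 2 of 10 members stand beside 11.3% of all genes beyond the vehicle libraries. ABCA1 lay below all vehicle libraries with ribavirin (19.4, 21.8 and 18.9 CPM) and with benzoic acid (18.8, 20.2 and 20.3 CPM), with log2 fold changes of -0.39 and -0.40 and edgeR adjusted p = 1 in both. Beyond the vehicle libraries were 9.19% of all genes with ribavirin, near the members' 1 of 10, and 2.95% with benzoic acid.

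The control groups differed between their series for 4 members, beside 30.1% of all genes tested. PLIN2 had 99.8 to 116 CPM over the 6 libraries of series 2, against 60.0 to 81.4 CPM over the 6 of series 1 (log2 difference 0.54, SE 0.07, edgeR adjusted p = 1.78e-07). HADHA was higher by 0.34 (SE 0.06, edgeR adjusted p = 9.96e-06) and CPT1A by 0.20 (SE 0.07, edgeR adjusted p = 0.0183), while ACADVL had a difference of -0.24 (SE 0.07, edgeR adjusted p = 0.00415). The CPT1A difference was lost with total count scaling (adjusted p = 0.114) and without replicate 3 of the untreated cells of either series (adjusted p of up to 0.059). The 3 LXR genes showed no called difference, and ABCA1 differed by 0.02 (95% interval -0.20 to 0.25). Vehicle against untreated cells called no member and 0% of all genes by edgeR, although 463 genes had an unadjusted p under 0.05. The MYLIP difference of vehicle from untreated was 0.26 (95% interval 0.02 to 0.50, edgeR adjusted p = 1) and that of CPT1A was -0.14 (-0.28 to 0, edgeR adjusted p = 1).

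Ranked by group mean, PDK4 held 3 levels that did not overlap at the top: sodium lauryl sulfate (24.1 to 36.7 CPM), dexamethasone (8.65 to 11.7 CPM) and prednisolone (4.09 to 5.78 CPM). From prednisolone down to LPS each neighbour overlapped the next. For PLIN2 the order was mercuric chloride, sodium lauryl sulfate and dexamethasone, each clear of the next, then untreated and vehicle series 2. CPT1A was highest with sodium lauryl sulfate and next in untreated cells of series 2 (224 to 262 CPM), and lowest with mercuric chloride and LPS. HADHA spanned the narrowest range of the 10 members as a ratio, with group means of 225 CPM (LPS) to 316 CPM (vehicle series 2). For ABCA1, cyclosporine and tofacitinib stood clear at the top and sodium lauryl sulfate clear at the bottom, while the neighbours from vehicle series 2 to prednisolone overlapped. For MYLIP, mercuric chloride stood clear at the top, and tofacitinib, next, overlapped dexamethasone.

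Across the 16 group means of log2 CPM, pairs of members were described by Pearson's r, with no test, since the groups share 1 scaling and a few groups set the value. PDK4 and PLIN2 had r = 0.60, which became 0.86 without mercuric chloride and 0.34 without sodium lauryl sulfate. PDK4 and ABCA1 had r = -0.69, and -0.42 without sodium lauryl sulfate. ABCA1 and ABCG1 had r = 0.52, and 0.90 without mercuric chloride, on few ABCG1 counts. Among 10964 genes with at least 5 CPM on average, the 5 most like PDK4 over the same 16 means were LRRC56 (r = 0.704), LMNTD2 (0.703), CPT1A (0.701), CAMSAP1 (0.693) and BRE (0.684). For PLIN2 they were CSNK1A1 (0.865), PRPF38A (0.85), TXNL1 (0.843), PHF23 (0.841) and IER5L (0.833). For ABCA1 they were FAM179B (0.817), AASDH (0.744), ARL1 (0.741), SIRT1 (0.725) and SNHG10 (0.694), and for ABCG1 KCTD7 (0.927), FAM114A1 (0.919), AKAP17A (0.916), STK40 (0.916) and TMEM263 (0.91). CPT1A was the single member found among these lists, which the floor of 5 CPM closed to ANGPTL4 and ABCG1. PLIN2 and ANGPTL4 had r = 0.85 over the same 16 means, 0.72 without mercuric chloride and 0.45 also without sodium lauryl sulfate, on few ANGPTL4 counts.

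The receptors themselves changed in few treatments. Group means were 13.1 to 21.4 CPM for PPARA, 13.1 to 26.2 CPM for PPARD and 7.90 to 19.9 CPM for PPARG. They were 4.44 to 9.77 CPM for NR1H3 (LXR alpha), 5.80 to 21.4 CPM for NR1H2 (LXR beta) and 141 to 271 CPM for RXRA. NR1H2 rose with mercuric chloride (log2 fold change 1.65, SE 0.22, edgeR adjusted p = 2.04e-06) and with tofacitinib (1.04, SE 0.22, edgeR adjusted p = 0.0262). With tofacitinib it held 16.5, 13.2 and 12.6 CPM, against 7.12, 6.04 and 6.22 CPM in vehicle series 2 and 8.26, 6.48 and 7.01 CPM in vehicle series 1. PPARD rose with LPS (0.75, SE 0.17, edgeR adjusted p = 0.043), as did the coactivator NCOA2 (0.78, SE 0.11, edgeR adjusted p = 0.000206). PPARGC1B, another coactivator, fell with mercuric chloride (-1.32, SE 0.17, edgeR adjusted p = 8.86e-08). With dexamethasone 1 of the 12 tested receptors and coregulators rose, near the 8.57% of all genes called. LPS raised 2 of the 12, beside 7.2% of all genes called, and tofacitinib 1, beside 2.32%. Mercuric chloride raised 1 and lowered 1, beside 41.9%. None was called with sodium lauryl sulfate, prednisolone or cyclosporine.

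Among 29 tested genes of other PPAR targets and fatty acid oxidation, dexamethasone raised 3 and lowered 1, beside 8.57% of all genes called. Among them was ACSL1, which activates long-chain fatty acids. It had 72.1, 68.2 and 28.9 CPM, against 9.98 to 12.8 CPM in vehicle series 2 and 14.9 to 15.8 CPM in vehicle series 1. Its log2 fold changes were 2.06 with dexamethasone (SE 0.16, edgeR adjusted p = 7.07e-10) and 1.92 with prednisolone (SE 0.16, edgeR adjusted p = 1.35e-08). Lipoprotein lipase, LPL, changed by 1.94 with dexamethasone and 1.56 with prednisolone, and the fatty acid binding protein FABP5 by -0.94 and -0.57. ACADS, a short-chain fatty acid oxidation enzyme, rose by 1.02 with dexamethasone. UCP2, a mitochondrial carrier, had a log2 fold change of -0.48 with prednisolone, where 2 genes rose and 2 fell, beside 1.96% of all genes called. LPS raised 3 and lowered 2, beside 7.2% of all genes called, with log2 fold changes of 1.82 for the fatty acid receptor CD36, 1.11 for ACSL1 and -0.43 for UCP2. Mercuric chloride raised 5 and lowered 10 of the 29 (median -0.30), where 41.9% of all genes tested were called and their median was -0.009.

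The largest changes in that list with mercuric chloride were in genes with few counts elsewhere. ACADL had 36 counts in its 3 libraries and none with vehicle, which is at least 47.5-fold higher against a floor of 3 counts over the 6 vehicle libraries. CREB3L3 had 47 counts, against 8. Such genes may have passed the filter on low counts through these same mercuric chloride libraries. Their part in the count of rises may thus not be independent of their level there. FABP3 had a log2 fold change of 1.39 and HILPDA, a lipid droplet protein, one of -1.38. Of 13 tested other LXR targets, mercuric chloride raised 4 and lowered 1, beside the 41.9% of all genes called, with rises of 2.23 for APOE, 1.17 for SCD, 0.88 for TMEM135 and 0.76 for PLTP. Dexamethasone raised APOE alone of these 13 (1.47, SE 0.20, edgeR adjusted p = 0.00695), a share near the 8.57% of all genes called, while ABCA1 was lower.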

How the data were processed

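The authors deposited 1 table of whole-number counts per symbol for each library, 48 in all. Per the labels' protocols, 500 ng of total RNA was made into Lexogen Quant-Seq libraries. Bowtie2, bedtools and hg19 (GRCh37) are named in the submitters' processing notes. Versions, roles, annotation and use of strand were not given in the sources used here. Sequences and positions in the text are from RefSeq GRCh38.p14, another build. Of 25737 rows per file, those of 286 repeated symbols were summed, which left 24462 symbols, and 0 per-sample columns were left unused.

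Groups came from the labels, which do not tie a control series to a treatment. The test was edgeR 4.0.16's quasi-likelihood F-test in R 4.3.3 with TMM scaling and filterByExpr, all 16 groups in 1 fit (32 residual degrees of freedom). Each treatment was tested against each vehicle series, with the larger p taken if both changes shared a sign, otherwise 1. The p-values were adjusted over 15642 genes. The log2 fold change is the mean over both series, and its SE does not cover their difference. Other contrasts were single ones of that fit. Ratios of low counts have exact 95% intervals that cover counting error only. No 2 libraries of a group were identical in 48 pairs. The test was tried on simulated data.

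The members and lists were chosen with earlier results of these data known. Named genes are the 10 members, up to 4 called genes with the largest change from each other list, and the 5 genes most like PDK4, PLIN2, ABCA1 and ABCG1 over the group means. Some genes that this rule names are not reported here. Alternatives were other scalings, no filter on low counts, DESeq2 1.42.0, limma 3.58.1 (voom), a replicate block, each vehicle series alone, untreated cells as the reference, only the groups compared, and each library left out.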

Additional observations from a re-analysis of the deposited data

How the results depend on the processing

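Of 16 member changes called against vehicle, 14 stayed called in every alternative that kept all libraries and 13 also with each library left out in turn. The 4 calls with sodium lauryl sulfate were among the 13. No member change turned its direction past the threshold. The number of members called moved by over 1.5 times as follows, and smaller moves are not listed, except with single libraries left out. With vehicle series 2 alone it was 7 for sodium lauryl sulfate (4 in the main test), 4 for LPS (2), 4 for prednisolone (1), and, from 0, it was 3 for tacrolimus, 4 for tofacitinib, 4 for genistein, 2 for ribavirin, 4 for aciclovir and 3 for benzoic acid. The number of all genes called rose alike with series 2 alone, to 2829 for tacrolimus (9 in the main test), 2952 for tofacitinib (363), 3208 for genistein (37), 2647 for ribavirin (23), 4153 for aciclovir (37), 834 for benzoic acid (5), 3772 for LPS (1127) and 3939 for prednisolone (307). With vehicle series 1 alone the number of members called was 4 for LPS, 2 for prednisolone, 3 for cyclosporine (1) and 3 for tofacitinib. All genes called rose there to 2376 for LPS, 574 for prednisolone, 3762 for cyclosporine (130 in the main test) and 1725 for tofacitinib. In a fit of only the groups compared the number of members called was 7 for sodium lauryl sulfate, 2 for tofacitinib, 1 for genistein and 0 for dexamethasone against prednisolone (3). All genes called were then 140 for sodium lauryl sulfate, 769 for tofacitinib, 446 for genistein and 6 for dexamethasone against prednisolone. With untreated cells in place of vehicle the number of members called was 0 for prednisolone and 2 for tofacitinib, beside 382 and 347 of all genes. Tofacitinib also had 2 members with upper quartile scaling, DESeq2 and limma-voom, beside 359, 444 and 393 of all genes. Total count scaling, chosen after seeing the data, gave 9 members for mercuric chloride (5) and 1 for tofacitinib, beside 8196 and 337 of all genes. A fit without mercuric chloride, also chosen after seeing the data, moved no number of members called. With single libraries left out, the number was 4 to 6 for mercuric chloride, 2 to 3 for dexamethasone, 0 to 1 for prednisolone, 0 to 1 for tofacitinib, 4 to 5 for sodium lauryl sulfate, 1 to 4 for dexamethasone against prednisolone, 3 for cyclosporine against tacrolimus in place of 4, and 3 to 4 between the control series. Over all genes, the number called with sodium lauryl sulfate was 48 in the main test, 2802 against series 2 only and 108 against series 1 only. Replicate numbers did not pair the libraries. Deviations of same-numbered libraries had a median correlation of -0.00327 over 360 pairs, and 18 of 48 libraries correlated best with one of their own number. The replicate block changed the call of 0 members over 17 comparisons, with 4 still called for sodium lauryl sulfate. Depth limits ANGPTL4 and ABCG1 most, with 3 and 36 counts in 6 vehicle libraries.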

Other observations

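Genes of sterol synthesis and uptake, which are driven by SREBP2 when cell sterol is low, were called in 6 treatments, most of them with mercuric chloride, dexamethasone and tofacitinib. Mercuric chloride raised 11 of 13 tested genes and lowered none, where 41.9% of all genes were called (median log2 fold change 0.946, median of all genes -0.009), under the scaling limits given for these libraries. HMGCS1, an early enzyme of cholesterol synthesis, rose by 2.71, IDI1 by 2.31 and INSIG1, which restrains SREBP processing, by 2.27. Dexamethasone raised 7 of the 13 and lowered none, beside 8.57% of all genes called (median 0.507), among them DHCR7 (1.30), STARD4 (1.28) and LSS (1.07). Tofacitinib lowered 7 of the 13 and raised none, beside 2.32% of all genes called (median -0.637). With tofacitinib INSIG1 fell by 0.98 on the log2 scale and SQLE, an enzyme of cholesterol synthesis, by 0.77. Tacrolimus lowered 2 of the 13, of 9 genes called in all. LPS and prednisolone each raised 1, beside 7.2% and 1.96% of all genes called. All 6 treatments share the vehicle libraries.

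Lipid droplet, lipolysis and cholesterol storage genes were called in both directions. With mercuric chloride 4 of 15 tested genes rose and 3 fell, a share near the 41.9% of all genes called, with log2 fold changes of 1.40 for PLIN3, a droplet coat protein related to PLIN2, 1.31 for the lysosomal cholesterol transporter NPC1, -1.28 for the triglyceride synthesis enzyme DGAT2 and -1.14 for the lipolysis inhibitor G0S2. With dexamethasone 2 rose and 2 fell, beside 8.57% of all genes called. G0S2 held 13.8, 13.6 and 4.02 CPM with dexamethasone, against 26.9, 28.7 and 29.0 CPM in vehicle series 2 and 23.6, 29.0 and 24.7 CPM in vehicle series 1 (-1.37, SE 0.19, edgeR adjusted p = 1.69e-05). With LPS 1 of the 15 rose, a share near the 7.2% of all genes called. It was MGLL, a monoacylglycerol lipase (1.18, SE 0.19, edgeR adjusted p = 0.000548).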
